A study of Mus musculus with 26 samples.

Results

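The 9 growth arrest genes Cdkn2a, Cdkn2b, Cdkn2c, Cdkn1a, Trp53, Mdm2, Ccng1, Bax and Rb1 were followed through the RNA-Seq and CUT&RUN data of mouse embryonic fibroblasts (MEFs) that differ in ATRX. They were taken from a list of classic polycomb and p53 targets in fibroblasts and matched by gene symbol to the GENCODE M21 annotation, and all 9 were found among the 53801 genes of the RNA-Seq files. The study compared 3 genotypes of female MEFs. Parental MEFs came from another laboratory, and the paper does not state outright that the WT cells were these MEFs. It also does not state that the KD cells came from the same line. ATRXΔRBR cells were a clone in which Cas9 and a pair of guide RNAs had removed the RNA binding region (RBR) from endogenous ATRX. The guide RNAs were transfected on a plasmid whose name gives a puromycin marker, and the paper's methods state no selection for this clone. ATRX KD cells carried an shRNA against Atrx and were puromycin-selected. RNA-Seq had 2 libraries per genotype, made from 2 biological replicates. CUT&RUN had 2 lists of peaks per genotype for EZH2 and H3K27me3, and 2 lists each for ATRX in WT and ATRXΔRBR cells, which gives 16 lists. The ATRXΔRBR results describe a single clone, and how the parental line was immortalized is not given in the sources used here.

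Cdkn2a and Cdkn2b lie side by side in the Ink4 locus. Cdkn2a encodes p16Ink4a, an inhibitor of the cyclin D kinases CDK4 and CDK6, and, from another first exon and reading frame, p19Arf, which restrains the ubiquitin ligase MDM2 and so stabilizes p53. Polycomb complexes are known to silence this locus in young fibroblasts, and it is switched on when MEFs age in culture. p53, the product of Trp53, activates Cdkn1a (the kinase inhibitor p21), Mdm2, Ccng1 and Bax, and the retinoblastoma protein encoded by Rb1 holds E2F factors in check when the cyclin-dependent kinases are inhibited.

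The RNA-Seq libraries held between 9051693 and 21723647 estimated counts, and with 2 libraries against 2 an exact permutation test cannot go below p = 0.333 (two-sided), so tests were made with edgeR across all genes. Of 10 fibroblast markers, 7 were at 5 TPM or more in each library, Vim, S100a4 and Col1a2 the highest, but Thy1 was at 0 in all 6 libraries, Dcn did not pass 4.22 TPM, and Col3a1 had 28.1 and 32.2 TPM in WT, 20.3 and 15.8 TPM in ATRXΔRBR and 0.36 and 0.75 TPM in KD. Markers of epithelium, endothelium, muscle and pluripotent cells summed to at most 5.22 TPM in any library, those of blood to between 6.18 and 13.8 TPM and those of neural cells to between 39.4 and 67.4 TPM, where Sox2 had 43.9 and 37.1 TPM in WT, 18.7 and 17.5 TPM in ATRXΔRBR and at most 1.10 TPM in KD, and Map2 had 14.6 and 25.6 TPM, 22.2 and 16.2 TPM, and 49.2 and 45.5 TPM. Their part in the results was not tested. Atrx RNA was at 633 and 434 CPM (counts scaled to the TMM-adjusted library size) in WT, 371 and 312 CPM in ATRXΔRBR and 411 and 551 CPM in the libraries labelled ATRX KD, so the KD and WT libraries overlapped, and the log2 fold change between them was -0.15 (SE 0.21, adjusted p = 0.605, from the quasi-likelihood test of edgeR after Benjamini-Hochberg adjustment). In TPM, which also weighs transcript length, the same difference was 1.17 on the log2(TPM + 1) scale, with the opposite sign. The Atrx length in the files, an average over its transcripts, was 4974 and 6292 bp in WT and 2839 and 2405 bp in KD. The study describes ATRX as depleted in its KD cells and shows a western blot of ATRX and DAXX protein. RNA does not measure that protein, and the KD libraries are named by their label here. The study's list of raw read files names 1 sequencing run for the WT and ATRXΔRBR CUT&RUN libraries and none for those labelled ATRX KD, and in RNA-Seq the difference between gene length and effective length was 37 bases in WT and ATRXΔRBR and 36.55 in KD, so knockdown and batch cannot be told apart. In bulk RNA, fewer cells that use a gene and less RNA per cell cannot be told apart either.

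The start sites of the members are shown first, because peaks and RNA are placed against them below. All sequences are from RefSeq (GRCm38.p6), read 5′ to 3′ on the strand of the gene, and end 1 base before a start in the GENCODE M21 annotation. In the first 4 sequences, capitals mark CG dinucleotides. They are the Arf start of Cdkn2a (chr4:89294654-89294853, minus strand), the Ink4a start of Cdkn2a (chr4:89282193-89282392, minus), the start of Cdkn2b (chr4:89311040-89311239, minus) and the main start of Cdkn1a (chr17:29093569-29093768, plus).
Cdkn2a Arf: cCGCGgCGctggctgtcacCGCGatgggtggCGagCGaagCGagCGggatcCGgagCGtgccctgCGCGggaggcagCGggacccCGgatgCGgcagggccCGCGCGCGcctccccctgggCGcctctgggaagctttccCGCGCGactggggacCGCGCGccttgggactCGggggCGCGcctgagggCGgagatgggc
Cdkn2a Ink4a: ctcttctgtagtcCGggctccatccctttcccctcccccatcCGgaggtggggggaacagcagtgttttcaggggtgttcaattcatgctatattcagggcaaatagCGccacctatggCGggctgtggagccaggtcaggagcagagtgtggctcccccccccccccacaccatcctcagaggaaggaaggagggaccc
Cdkn2b: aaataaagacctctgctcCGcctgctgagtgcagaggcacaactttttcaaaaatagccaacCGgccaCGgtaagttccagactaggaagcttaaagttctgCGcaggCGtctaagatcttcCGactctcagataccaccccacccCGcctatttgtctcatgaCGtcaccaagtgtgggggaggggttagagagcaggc
Cdkn1a main start: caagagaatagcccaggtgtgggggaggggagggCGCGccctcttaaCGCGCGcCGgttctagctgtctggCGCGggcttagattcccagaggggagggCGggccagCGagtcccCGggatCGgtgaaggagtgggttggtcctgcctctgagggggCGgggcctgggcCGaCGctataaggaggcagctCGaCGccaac
The Arf run held 31 CG dinucleotides in 200 bases, the Ink4a run 4, the Cdkn2b run 8 and the Cdkn1a run 17. Over the promoter windows of the RefSeq table, which also take in the first 50 bases of the transcript, the Arf start had 45 CG dinucleotides, more than 98.1% of 32817 promoters, and the Ink4a start had 12, more than 60.4% of them. The median promoter had 7. The 11 promoter windows of 8 members were in the table, and Rb1 was not matched.

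The p53 half-site consensus, the 10-base motif of which p53 binds a pair, was searched on both strands in the same windows, where its pattern is its own reverse complement. It matched once or more in the windows of Cdkn1a (2 matches at the upstream start), Trp53, Mdm2, Ccng1 and Bax, and in none of the 3 windows of the Ink4 locus or the 2 windows of Cdkn2c. A match was found in 8.36% of the 32817 promoters. The upstream start of Cdkn1a (chr17:29090776-29090975, plus) and the start of Ccng1 (chr11:40755312-40755511, minus) are shown with the matches in capitals.
Cdkn1a upstream start: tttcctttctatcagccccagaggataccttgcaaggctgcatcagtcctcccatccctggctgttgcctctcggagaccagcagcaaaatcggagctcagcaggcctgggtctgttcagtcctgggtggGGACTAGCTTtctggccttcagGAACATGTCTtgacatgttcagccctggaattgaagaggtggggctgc
Ccng1: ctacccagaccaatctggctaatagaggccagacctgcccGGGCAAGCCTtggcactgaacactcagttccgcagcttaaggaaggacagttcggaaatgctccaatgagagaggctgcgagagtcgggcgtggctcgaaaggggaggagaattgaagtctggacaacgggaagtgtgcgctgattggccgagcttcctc
A match is a stretch of letters and was not tested for binding.

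Cdkn2a was the most abundant member in each genotype, and Rb1 the least. In TPM, which divides by gene length, the mean level of Cdkn2a was 1149 ± 361 (SD, n = 2) in WT, 1105 ± 318 in ATRXΔRBR and 722 ± 34.5 in the libraries labelled ATRX KD, and in WT it was gene number 64 of 53801 when ordered by level. In WT cells the order below it was Bax (240 ± 62.5 TPM), Ccng1 (195 ± 31.1), Cdkn2c (183 ± 6.34), Trp53 (170 ± 12.7), Mdm2 (162 ± 60.8), Cdkn2b (155 ± 19.5), Cdkn1a (139 ± 17.4) and Rb1 (40.9 ± 15.7). Each of these genes from Bax to Cdkn1a overlapped its neighbours in that order, so only the top and bottom positions are clear of the spread. Cdkn1a was 8th in WT but 2nd in ATRXΔRBR, at 291 ± 31.8 TPM, where it overlapped the next gene, Bax. In the libraries labelled ATRX KD it was 7th, at 97.0 ± 0.41 TPM.

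**Figure D1:**
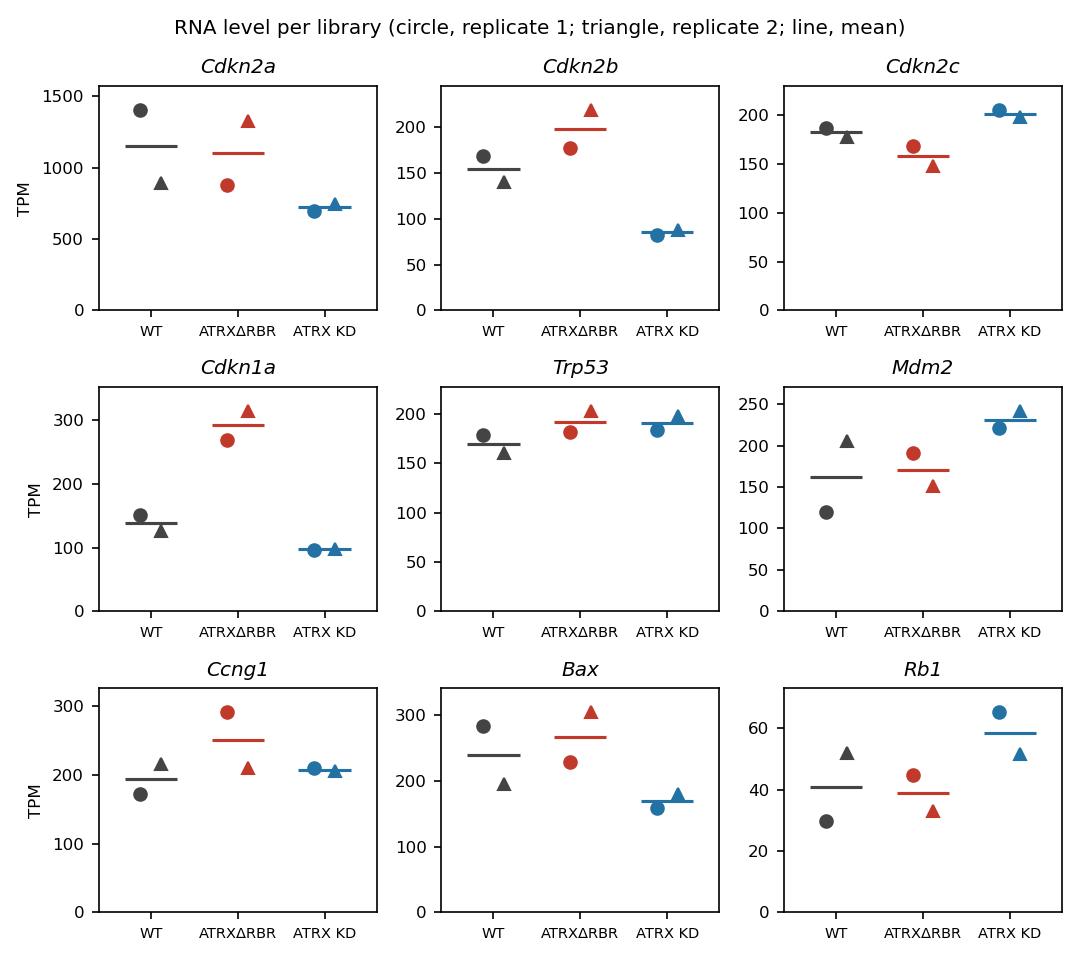
TPM of each of the 9 genes (y axis from 0) in the 6 RNA-Seq libraries by genotype, with circles for replicate 1, triangles for replicate 2 and lines at the mean of 2 libraries. Cdkn1a is highest in both ATRXΔRBR libraries, Cdkn2a, Cdkn2b, Cdkn1a and Bax are lowest in both libraries labelled ATRX KD, and Cdkn2a and Bax lie far apart between the libraries of WT and of ATRXΔRBR.

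Between ATRXΔRBR and WT, Cdkn1a rose and no other member passed the test, whereas between the libraries labelled ATRX KD and WT, Cdkn2a, Cdkn2b, Cdkn1a and Bax fell and Rb1 rose. In ATRXΔRBR against WT, 1 of 9 members was called, beside 6.85% of 16334 genes (2.79% higher and 4.07% lower). For KD against WT the members called were 5 of 9, beside 33.0% of 16785 genes (15.2% higher and 17.8% lower). Both comparisons share the WT libraries. For KD against ATRXΔRBR, which shares libraries with each of them, 5 of 9 members were called, all 5 lower, beside 34.7% of 16520 genes (16.2% higher and 18.5% lower). The 9 members had a median log2 fold change of 0.13 in ATRXΔRBR against WT, -0.20 in KD against WT and -0.47 in KD against ATRXΔRBR, beside -0.02, -0.02 and -0.02 over all genes tested. The libraries of the groups did not overlap in CPM for 4 of 9 members in ATRXΔRBR against WT, 3 higher and 1 lower, beside 49.5% of all genes (23.6% higher and 25.9% lower). The same held for 6 of 9 in KD against WT, 1 higher and 5 lower, beside 69.8% (33.8% and 35.9%), and for 7 of 9 in KD against ATRXΔRBR, 2 higher and 5 lower, beside 68.9% (34.0% and 35.0%). Taken over both directions, these shares without overlap are near those of all genes.

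**Figure D2:**
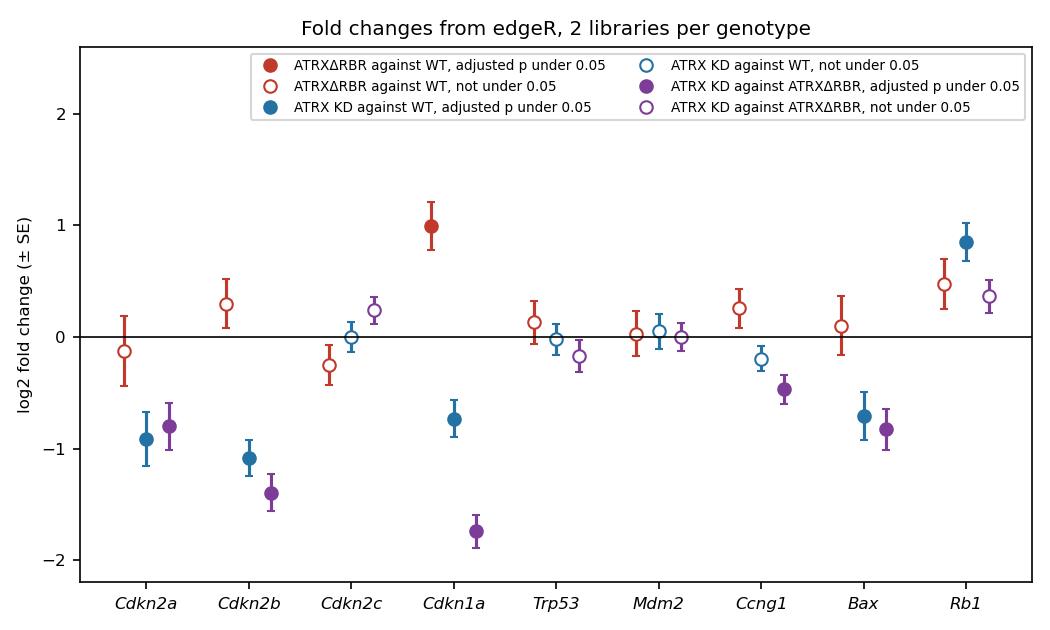
The log2 fold change of each gene (y axis, with bars of 1 SE) in 3 comparisons of 2 libraries against 2, filled where the adjusted p of edgeR's quasi-likelihood test is under 0.05. Cdkn1a is at 0.99 in ATRXΔRBR against WT and at -0.73 in ATRX KD against WT, and Trp53 and Mdm2 are unfilled throughout.

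Cdkn2a, the gene of p16Ink4a and p19Arf, was at 658 and 375 CPM in WT, 352 and 589 CPM in ATRXΔRBR and 263 and 288 CPM in the libraries labelled ATRX KD. The WT and ATRXΔRBR libraries overlapped over nearly their whole range, and both KD libraries lay below all 4 of them. Its log2 fold change was -0.13 (SE 0.31, adjusted p = 0.874, from the same edgeR test as all adjusted p-values below) in ATRXΔRBR against WT and -0.91 (SE 0.24, adjusted p = 0.0268) in KD against WT. The first turned to 0.34 without WT replicate 1 and 0.20 without ATRXΔRBR replicate 1. A KD fit with 1 WT library took its spread from the KD libraries alone, where a call is a weak check. The second value was -0.46 without WT replicate 1 and -1.26 without WT replicate 2. In KD against ATRXΔRBR it was -0.80 (SE 0.21, adjusted p = 0.0180), and this call was lost without KD replicate 1 (adjusted p = 0.0507) and in a fit of all 6 libraries (adjusted p = 0.0744), where the 10 alternatives ranged from 3.48e-60 to 0.0744. It was -0.38 without ATRXΔRBR replicate 2.

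The gene count cannot separate the transcripts of Cdkn2a, which share their later exons, but the gene length that RSEM writes is an average of the transcript lengths weighted by their estimated use. With 895 bases for the Arf transcript and 852 for the Ink4a transcript in GENCODE M21, the Arf transcript had an estimated share of 88.7% and 84.3% in the WT libraries. It had 79.5% and 78.1% in ATRXΔRBR and 83.6% and 78.6% in the libraries labelled ATRX KD. The WT shares were the highest, with no overlap with ATRXΔRBR. The lower WT share and the higher KD share, 84.3% and 83.6%, lay closer together than the 2 libraries of WT or of KD. The Ink4a transcript was put at 158 and 140 TPM in WT, at 180 and 292 TPM in ATRXΔRBR, and at 115 and 160 TPM in KD. These shares are a description with no test, and they rest on M21 lengths, which were the same to the base for 32807 of 33736 genes with 1 transcript in the files. That check does not cover Cdkn2a, which has more than 1 transcript. The shares also assume that the Arf and Ink4a transcripts are the only ones counted. They rest on weighted lengths that ran only from 885.6 bp (ATRXΔRBR replicate 2) to 890.2 bp (WT replicate 1).

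Cdkn2b encodes p15Ink4b, a CDK4 and CDK6 inhibitor like p16Ink4a. It was at 125 and 94.1 CPM in WT, 113 and 155 CPM in ATRXΔRBR and 49.6 and 54.1 CPM in the libraries labelled ATRX KD. The KD libraries were again below all others, and WT and ATRXΔRBR overlapped. The log2 fold changes were 0.30 (SE 0.22, adjusted p = 0.507) in ATRXΔRBR against WT, -1.08 (SE 0.17, adjusted p = 0.00353) in KD against WT and -1.40 (SE 0.17, adjusted p = 0.000340) in KD against ATRXΔRBR. Both KD calls held in 10 of 10 alternatives, of which those without a WT or ATRXΔRBR library are weak checks. Cdkn2c, the gene of p18Ink4c on another part of the same chromosome, was not called with all libraries. It was at 181 and 149 CPM in WT, at 133 and 143 CPM in ATRXΔRBR, and at 160 and 171 CPM in KD. Its log2 fold changes lay between -0.25 (SE 0.18, adjusted p = 0.487, ATRXΔRBR against WT) and 0.24 (SE 0.12, adjusted p = 0.166, KD against ATRXΔRBR). The last was called without ATRXΔRBR replicate 1 (0.18, adjusted p = 0.0374) and without ATRXΔRBR replicate 2 (0.30, adjusted p = 0.000973), within a range of 0.000973 to 0.655 over 10 alternatives.

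Cdkn1a, whose product p21 inhibits cyclin-dependent kinases and is the classic arrest target of p53, was, like Ccng1 and Rb1, a member whose libraries did not overlap between any of the 3 genotypes in CPM. It was at 150 and 109 CPM in WT, 226 and 287 CPM in ATRXΔRBR and 79.4 and 77.3 CPM in the libraries labelled ATRX KD. No groups overlapped, and ATRXΔRBR was the highest. The log2 fold change of ATRXΔRBR against WT was 0.99 (SE 0.21, adjusted p = 0.0312), and over 10 alternatives the adjusted p ranged from 3.50e-05 to 0.0650. The call was lost without WT replicate 2 (log2 fold change 0.79, adjusted p = 0.0627) and without ATRXΔRBR replicate 2 (0.82, adjusted p = 0.0650). The call in KD against WT was lost without KD replicate 2 and held in the other 9 alternatives, of which those without a WT library are weak checks. The log2 fold change there was -0.73 (SE 0.17, adjusted p = 0.0157). In KD against ATRXΔRBR it was -1.74 (SE 0.15, adjusted p = 5.16e-05).

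Neither Trp53 nor Mdm2, which encodes the ligase that turns p53 over, was called. Trp53 was at 173 and 140 CPM in WT, 151 and 190 CPM in ATRXΔRBR and 149 and 160 CPM in the libraries labelled ATRX KD, so the 3 genotypes overlapped. Its log2 fold change was 0.13 (SE 0.19, adjusted p = 0.765) in ATRXΔRBR against WT and -0.02 (SE 0.14, adjusted p = 0.920) in KD against WT. In KD against ATRXΔRBR it was -0.17 (SE 0.14, adjusted p = 0.396), which became a call without ATRXΔRBR replicate 1 (-0.32, adjusted p = 6.83e-05, the lowest of 10 alternatives, the highest being 0.939). The strand setting of the counting is not given in the sources used here, and Trp53 overlaps the antisense gene Wrap53. Mdm2 was at 172 and 232 CPM in WT, 219 and 192 CPM in ATRXΔRBR and 209 and 210 CPM in KD. Its log2 fold changes were 0.03 (SE 0.20, adjusted p = 0.959) and 0.05 (SE 0.16, adjusted p = 0.832) against WT, and both signs rested on 1 library. In ATRXΔRBR against WT it was -0.17 without WT replicate 1 and -0.07 without ATRXΔRBR replicate 1. In KD against WT the calls moved too. Without WT replicate 1 it was -0.17 (adjusted p = 0.0493) and without WT replicate 2 it was 0.28 (adjusted p = 0.000665), within a range of 0.000665 to 0.923 over 10 alternatives. RNA levels do not measure p53 or MDM2 protein.

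Ccng1, a p53 target that encodes cyclin G1, was at 321 and 351 CPM in WT, 432 and 366 CPM in ATRXΔRBR and 301 and 287 CPM in the libraries labelled ATRX KD. The groups did not overlap, with ATRXΔRBR the highest and KD the lowest, but only KD against ATRXΔRBR was called with all libraries, at a log2 fold change of -0.47 (SE 0.13, adjusted p = 0.0234). That call was lost without either KD library, with adjusted p = 0.213 without replicate 1 and 0.344 without replicate 2, and the 10 alternatives ranged from 1.60e-15 to 0.344. KD against WT, at -0.20 (SE 0.11, adjusted p = 0.219), was called without WT replicate 1 (-0.28, adjusted p = 0.000318), with the other alternatives up to 0.778. Bax, the p53 target that opens the outer mitochondrial membrane in apoptosis, was at 126 and 80.3 CPM in WT, 89.1 and 131 CPM in ATRXΔRBR and 59.2 and 67.1 CPM in KD. WT and ATRXΔRBR overlapped and both KD libraries were lower than either. Bax was called in KD against WT (-0.71, SE 0.21, adjusted p = 0.0404) and in KD against ATRXΔRBR (-0.83, SE 0.18, adjusted p = 0.00844). The first call was lost without KD replicate 1 (adjusted p = 0.0997) and in a fit of all 6 libraries (adjusted p = 0.0550), where the 10 alternatives ranged from 3.12e-29 to 0.0997. Its value was -0.35 without WT replicate 1, and the second value was -0.51 without ATRXΔRBR replicate 2. The sign of Bax in ATRXΔRBR against WT, at 0.10 (SE 0.27, adjusted p = 0.882), turned without replicate 2 of either genotype.

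Rb1 was the member that rose in the libraries labelled ATRX KD. It was at 39.8 and 54.6 CPM in WT, 72.8 and 57.6 CPM in ATRXΔRBR and 88.5 and 82.4 CPM in KD, with no overlap between genotypes. In KD against WT its log2 fold change was called in 10 of 10 alternatives, of which those without a WT library are weak checks. It was 0.85 (SE 0.17, adjusted p = 0.00960) there and 0.47 (SE 0.22, adjusted p = 0.286) in ATRXΔRBR against WT. In KD against ATRXΔRBR it was 0.36 (SE 0.15, adjusted p = 0.0930), and here 3 of 10 alternatives called it: no filter on low counts (adjusted p = 0.0303), the replicate block (adjusted p = 0.0349) and the fit without ATRXΔRBR replicate 1 (adjusted p = 9.14e-08). In TPM the KD and WT libraries of Rb1 overlapped, with a lowest KD value of 51.79 and a highest WT value of 51.97. On that scale Rb1 in ATRXΔRBR against WT had the opposite sign, at -0.07 on the log2(TPM + 1) scale, Ccng1 in KD against WT had 0.09 in TPM against -0.20 in CPM, and Trp53 in KD against WT had 0.17 against -0.02. For Mdm2 in KD against WT the TPM scale gave 0.51 and the CPM scale 0.05. These differences in TPM are to be read against the shift of all genes: the 9510 genes with at least 5 TPM in every library had a median of 0.20 on the TPM scale in KD against WT, 0.05 in ATRXΔRBR against WT and 0.16 in KD against ATRXΔRBR.

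The spread between replicates of the members followed gene length. Among the 9 members, the 6 with the shortest weighted lengths (862 to 1820 bp; Bax, Cdkn2a, Cdkn2b, Cdkn2c, Cdkn1a and Trp53) were higher in replicate 1 than in replicate 2 of WT and lower in replicate 1 than in replicate 2 of ATRXΔRBR, and Mdm2, Rb1 and Ccng1 (2343 to 3277 bp) were the other way round in both. The log2 ratio of replicate 1 to replicate 2 was 0.81 for Cdkn2a in WT and -0.74 in ATRXΔRBR, and -0.45 and 0.34 for Rb1. Over all genes, the median ratio in WT was 0.34 for 810 genes under 1000 bp and -0.19 for 2265 genes of 4000 bp or more, and in ATRXΔRBR it was -0.41 and 0.30. In the libraries labelled ATRX KD it was -0.09 and -0.02. WT replicate 1 and ATRXΔRBR replicate 2 thus stood on 1 side and WT replicate 2 and ATRXΔRBR replicate 1 on the other, and the part of this in the fold changes of the members was not tested.

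**Figure D3:**
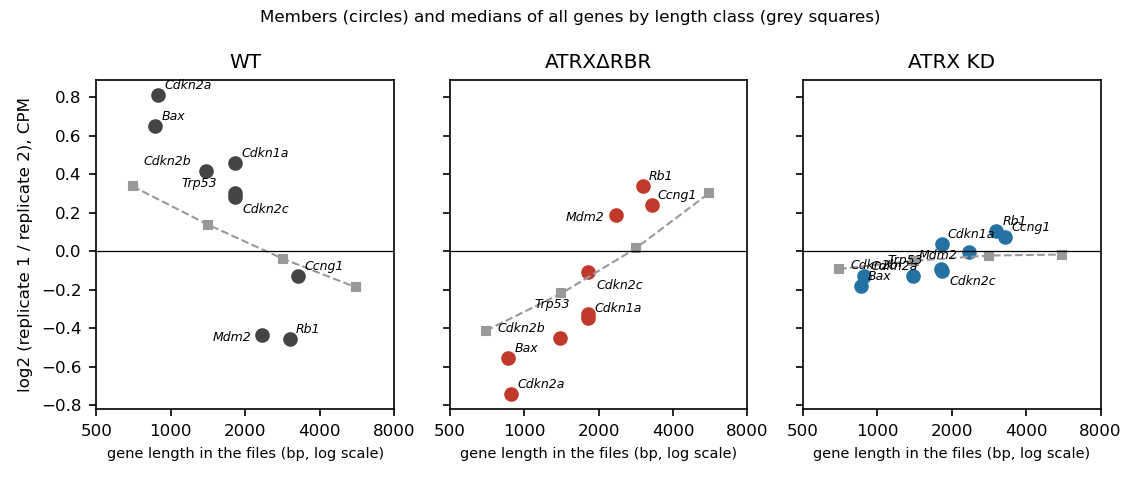
Log2 ratio of replicate 1 to replicate 2 in CPM (y axis) against the gene length in the files (x axis, log scale) for the 9 genes in each genotype, with grey squares for the median of all genes in 4 length classes, drawn near the middle of each class. The ratio falls with length in WT (0.34 to -0.19 for all genes), rises with length in ATRXΔRBR (-0.41 to 0.30) and is nearly flat in ATRX KD.

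Beyond the members, 34 further p53 target genes were all tested. This list and the lists below were chosen with earlier results of these data known, so their shares are a description only. In ATRXΔRBR against WT 7 of them were called (20.6%, beside 6.85% of all genes), 4 higher and 3 lower, with a median log2 fold change of 0.24. Sesn2, a stress-induced inhibitor of mTORC1 signalling, was at 50.6 and 47.9 CPM in WT and 104 and 110 CPM in ATRXΔRBR (log2 fold change 1.13, SE 0.17, adjusted p = 0.00739). Gadd45a, a DNA damage response gene, rose by 1.09 (SE 0.22, adjusted p = 0.0262), Gdf15, a secreted stress cytokine, by 2.77 from at most 1.76 CPM in WT (SE 0.62, adjusted p = 0.0362), and Ephx1, a microsomal epoxide hydrolase, by 0.79 (SE 0.18, adjusted p = 0.0363). In the other direction, Perp, a membrane protein of p53-dependent death and of desmosomes, went from 413 and 369 CPM in WT to 56.3 and 63.0 CPM in ATRXΔRBR (-2.70, SE 0.18, adjusted p = 0.000335). Tigar, a regulator of glycolysis, fell by 1.24 on the log2 scale (SE 0.23, adjusted p = 0.0178), and Pmaip1, the BH3-only gene of NOXA, had 27 and 20 counts in WT and 0 and 0 in ATRXΔRBR. The called targets were thus not all on the same side.

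For KD against WT, 12 of the 34 targets were called (35.3%, beside 33.0% of all genes), 3 higher and 9 lower, and the median was -0.23. Eda2r, a death receptor of the TNF receptor family, was at 34.3 and 50.4 CPM in WT and 7.52 and 6.30 CPM in the libraries labelled ATRX KD (-2.64, SE 0.23, adjusted p = 0.000517). Sulf2, a heparan sulfatase, had a log2 fold change of -2.33 (SE 0.17, adjusted p = 0.000259) and Ddit4, a stress-induced inhibitor of mTORC1, of -1.56 (SE 0.12, adjusted p = 0.000316). Among the 3 higher genes, Dram1, a lysosomal gene of autophagy, had 0.94 (SE 0.15, adjusted p = 0.00417). The list count moved with single libraries, to 20 without WT replicate 1, 23 without WT replicate 2, 7 without KD replicate 1 and 6 without KD replicate 2. In KD against ATRXΔRBR 19 of the 34 were called (55.9%, beside 34.7% of all genes), 4 higher and 15 lower, with a median of -0.37. This count was smaller without either KD library and larger without either ATRXΔRBR library. Gadd45a (-2.33, SE 0.16, adjusted p = 1.61e-05) and Perp (2.37, SE 0.14, adjusted p = 5.46e-06) were among the genes called.

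Of 18 regulators of p53 and DNA damage kinases that were tested, 2 were called in ATRXΔRBR against WT (11.1%, beside 6.85% of all genes), and 6 without WT replicate 2, 1 without ATRXΔRBR replicate 1 and 4 without ATRXΔRBR replicate 2. Trp63, the p53 relative of stratified epithelium, was at 2.06 and 1.34 CPM in WT and 14.9 CPM or more in ATRXΔRBR (3.18, SE 0.29, adjusted p = 0.000892), and had 3 and 0 counts in the libraries labelled ATRX KD. Rpl5, a ribosomal protein that can bind MDM2, fell by 0.85 on the log2 scale (SE 0.17, adjusted p = 0.0211). Of the same genes, 13 of 18 were called in KD against WT (72.2%, beside 33.0% of all genes), 7 higher and 6 lower, but 8 without KD replicate 1 and 7 without KD replicate 2. With all libraries, Hipk2, a kinase that phosphorylates p53, was at 1.41 (SE 0.13, adjusted p = 0.000560) and Rpl5 at -1.60 (SE 0.12, adjusted p = 0.000316).

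Among 26 genes of the RB family, E2F factors, cyclins and cyclin-dependent kinases, 2 were called in ATRXΔRBR against WT (7.69%, beside 6.85% of all genes), both D-type cyclins that drive CDK4 and CDK6, and 1 without WT replicate 2 or without ATRXΔRBR replicate 2. Ccnd2 was at 4.74 and 3.26 CPM in WT and 27.2 and 26.5 CPM in ATRXΔRBR (2.75, SE 0.25, adjusted p = 0.000808), and had 0 and 1 counts in the libraries labelled ATRX KD. Ccnd1 was at 134 and 119 CPM in WT, 219 and 228 CPM in ATRXΔRBR and 45.0 and 46.8 CPM in KD, a log2 fold change of 0.83 (SE 0.17, adjusted p = 0.0233) and -1.47 (SE 0.13, adjusted p = 0.000454) against WT. The KD libraries differed from WT in 16 of the 26 (61.5%, beside 33.0% of all genes), 5 higher and 11 lower, but in 5 without KD replicate 1 and in 5 without KD replicate 2. In the same list, Cdkn1c, the gene of the kinase inhibitor p57, had 271 and 192 counts in WT and 0 and 0 in KD. Of 12 tested regulators of the Ink4 locus, such as Bmi1 and Cbx7 of PRC1, which silence it, 0 were called in ATRXΔRBR against WT by edgeR with the count filter used here, 3 had an unadjusted p under 0.05, and 1 was called by DESeq2, by edgeR with no filter and by edgeR on all 6 libraries. Against WT, 6 of the 12 were called in KD (beside 33.0% of all genes), 1 higher and 5 lower, but 0 without KD replicate 1, 0 without KD replicate 2 and 3 by DESeq2. With all libraries the higher gene was Ezh2, at 0.37 (SE 0.11, adjusted p = 0.0435). Among the lower ones, Eed, another PRC2 gene, was at -0.54 (SE 0.15, adjusted p = 0.0305) and Id1 at -0.72 (SE 0.19, adjusted p = 0.0258). Cbx7 was at -0.56 (SE 0.17, adjusted p = 0.0395) and Bmi1 at -0.42 (SE 0.12, adjusted p = 0.0337).

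The nearest protein-coding neighbours of the Ink4 locus did not pass the test where they could be tested. Mtap, which encodes methylthioadenosine phosphorylase and ends 93.4 kb from Cdkn2a, had log2 fold changes of -0.44 (SE 0.16, adjusted p = 0.165) in ATRXΔRBR against WT and -0.23 (SE 0.11, adjusted p = 0.150) in KD against WT. Dmrta1, 368 kb from Cdkn2b on the other side, had at most 7 counts in a library. It passed the count filter only in KD against WT (-2.31, SE 1.13, adjusted p = 0.158). The 3 genes whose TPM followed Cdkn1a most closely over the 6 libraries were Sqstm1 (Pearson's r = 0.996), Gstm1 (0.995) and Adamtsl4 (0.994), and those for Cdkn2a were Stub1 (0.999), Ndufa11 (0.998) and Tbcb (0.997), out of 10689 genes with a mean of at least 5 TPM. With 6 libraries in 3 genotypes such values are common: 161 genes were above 0.95 for Cdkn1a and 111 for Cdkn2a.

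H3K27me3, the mark that EZH2 of PRC2 lays down, had no peak within 2 kb of a member's start or over its gene in any of the 6 lists. Among 9823 protein-coding genes with at least 5 TPM in WT, 3.25% and 3.75% had such a peak at the start in WT, 5.80% and 5.24% in the ATRXΔRBR lists and 1.54% and 1.27% in the lists labelled ATRX KD, so 0 of 9 is near that background. The nearest H3K27me3 peak to Cdkn2a was 393 and 376 kb away in the WT lists, 267 kb away in both ATRXΔRBR lists and 393 and 394 kb away in the KD lists. The peak lists themselves carry no read depth, and a missing peak is no measurement of 0.

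EZH2 peaks were present at the starts of 7 and 7 of the 9 members in the WT lists, of 8 and 6 in the ATRXΔRBR lists and of 2 and 2 in the lists labelled ATRX KD. The corresponding shares of the 9823 genes were 83.9% and 77.8%, 86.5% and 57.5%, and 31.4% and 41.3%, and the KD lists were shorter, with 5376 and 7093 peaks against 11408 to 22418. In the KD lists 2 of 9 is somewhat below that share, but with 9 genes the gap is too small to read as a difference. In the others the members were near it. At the Arf start, peaks of 540 and 438 bp in WT and 480 and 366 bp in ATRXΔRBR spanned the start, and the Cdkn2b start lay in a peak of 205 to 610 bp in each of the same 4 lists. Neither KD list had a peak at these starts, although KD replicate 2 had one of 208 bp inside Cdkn2a, and no list of any target had a peak within 2 kb of the Ink4a start. Ccng1 was the member with an EZH2 peak at its start in all 6 lists, from 208 to 724 bp wide.

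**Figure D4:**
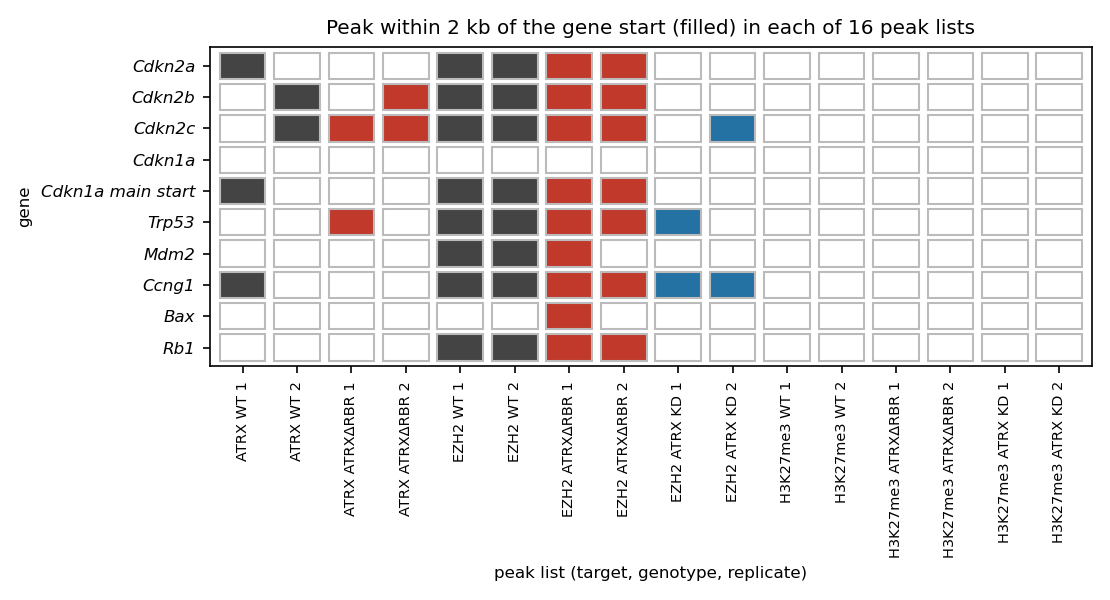
Presence (filled) or absence (open) of a deposited peak within 2 kb of the start of each gene (rows, with a further row for the main start of Cdkn1a) in each of the 16 peak lists (columns), coloured by genotype. EZH2 fills 7 and 7 of the 9 genes in WT and 2 and 2 in ATRX KD, the 6 H3K27me3 columns are open, and the ATRX columns fill different genes from list to list.

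For Cdkn1a the outermost annotated start had no EZH2 peak in any list, whereas the main start further downstream lay inside one in all 4 WT and ATRXΔRBR lists. These peaks were 2175 and 2083 bp wide in WT and 2307 and 281 bp in ATRXΔRBR, with a fold enrichment over local background of 4.61 and 4.49, and 5.24 and 5.12. Neither KD list had a peak there. Of the 5 lists with EZH2 peaks near the Trp53 start, ATRXΔRBR replicate 2 and KD replicate 1 had them only upstream of it, and the others had them on both sides. In WT replicate 2 they ran from -1216 to -832 bp and from 1042 to 1244 bp relative to the start, and Bax had one only in ATRXΔRBR replicate 1.

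ATRX peaks were found at the starts of 2 of the 9 members in each of the 4 lists, beside 22.8% and 10.8% of the 9823 genes in WT and 26.7% and 9.23% in ATRXΔRBR. The members differed from list to list. They were Cdkn2a and Ccng1 in WT replicate 1, Cdkn2b and Cdkn2c in WT replicate 2 and in ATRXΔRBR replicate 2, and Cdkn2c and Trp53 in ATRXΔRBR replicate 1. At a q-value of 0.01 or less, 1, 1, 2 and 0 members were left. With any annotated start counted in place of the outermost, WT replicate 1 had 3 members, Cdkn1a being added by a peak within 2 kb of its main start. A site further away recurred: an ATRX peak 56.4 to 57.1 kb upstream of the Arf start was present in all 4 lists, 603 and 349 bp wide in WT and 527 and 745 bp in ATRXΔRBR, with an EZH2 peak over it in WT replicate 1 only. At a q-value of 0.01 or less it was left in ATRXΔRBR replicate 2 only, with −log10 q-values of 1.25 and 1.69 in WT and 1.77 and 2.33 in ATRXΔRBR. It was chosen after its values were seen. Of the ATRX peaks of a list, between 15.3% and 29.3% met a peak in all 3 other lists. The stretch shared by the 4 peaks, chr4:89351110-89351401 (GRCm38.p6, plus strand, from the RefSeq genome), is shown because it is the ATRX site near the locus that all lists share, with its 3 CG dinucleotides in capitals.
ATRX site upstream of Arf: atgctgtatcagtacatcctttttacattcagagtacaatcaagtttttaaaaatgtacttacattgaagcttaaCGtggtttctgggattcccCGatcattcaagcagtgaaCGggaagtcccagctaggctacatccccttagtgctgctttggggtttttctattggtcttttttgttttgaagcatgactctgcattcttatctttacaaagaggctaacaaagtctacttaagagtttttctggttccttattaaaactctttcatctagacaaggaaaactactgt
The stretch had a GC content of 37.3%.

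**Figure D5:**
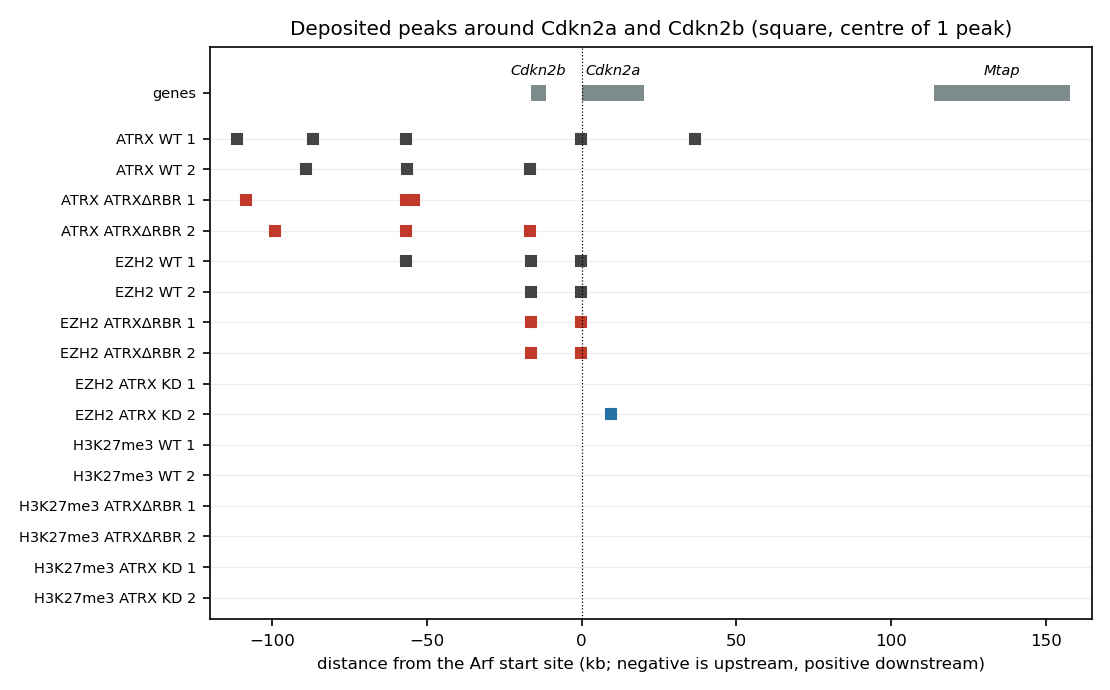
Centres of all deposited peaks within 100 kb of the Ink4 locus (squares, 1 row per peak list, coloured by genotype) by distance from the Arf start in kb, with gene bodies on top. All 4 ATRX rows have a square between -57.1 and -56.4 kb, the 4 EZH2 rows of WT and ATRXΔRBR have squares at the Arf and Cdkn2b starts, and the H3K27me3 rows are empty.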

How the data were processed

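RNA-Seq and CUT&RUN of MEFs were used with the groups given by the sample labels. For RNA-Seq, poly(A) RNA was aligned by the authors with STAR. From these alignments RSEM gave the deposited estimated counts, TPM, FPKM and gene lengths. TPM were taken as deposited and FPKM were not used. The strand setting and annotation release of the counting are not given in the sources used here. For CUT&RUN, Bowtie2 was used by the authors for mapping to mm10, and MACS2 in its broad mode, with a cutoff of 0.1, gave 1 peak list per library. The deposited fold enrichment is a ratio over local background, and the deposited −log10 q-values come from MACS2. The deposited scores were not used. IgG libraries were not analysed here.

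Estimated counts were rounded, genes whose 4 libraries summed to over 10 counts were tested, and genotypes were compared with edgeR 4.0.16 (TMM, quasi-likelihood test, R 4.3.3) at an adjusted p under 0.05 over all genes. The SE given with an edgeR log2 fold change was derived from the test. It is the absolute log2 fold change divided by the square root of the F statistic. CPM used TMM over the 6 libraries. Mean TPM were compared with a pseudocount of 1. Peaks were placed with GENCODE M21 and counted from 1 bp within 2 kb of the outermost start. The fits were tested on simulated data. Alternatives included DESeq2 1.42.0, other filters and fits, and leaving out each library in turn, where a lone library is assumed to vary like the others. The text names all 9 members, up to 4 higher and 4 lower genes of each list by fold change, the 3 genes most like Cdkn1a and Cdkn2a in TPM, and the neighbours of the Ink4 locus within 1 Mb. Not all genes allowed by this rule are printed. The members and lists were chosen with earlier results of these data known.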

Additional observations from a re-analysis of the deposited data

How the results depend on the processing

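The calls on Cdkn2a, Cdkn2b and Rb1 in KD against WT and on Cdkn2b, Cdkn1a and Bax in KD against ATRXΔRBR held in all 10 alternatives run for each. Among these, KD fits without a WT or ATRXΔRBR library took their spread mostly from the 2 KD libraries, so holding there is a weak check. The calls lost elsewhere are given beside the results. Among values that were not called, leaving out 1 library turned the sign of Cdkn2a, Trp53, Mdm2 and Bax in ATRXΔRBR against WT, of Cdkn2c, Trp53 and Mdm2 in KD against WT and of Trp53 and Mdm2 in KD against ATRXΔRBR, and other count filters turned Cdkn2c in KD against WT. Mdm2 in KD against WT turned to -0.17 without WT replicate 1 and was 0.28 without WT replicate 2. Leaving out 1 library at a time gave between 1055 and 1520 genes called in ATRXΔRBR against WT (1119 with all), between 3193 and 8947 in KD against WT (5538) and between 3089 and 8736 in KD against ATRXΔRBR (5734), and 0 to 1, 4 to 7 and 3 to 8 members called. The lowest counts in the KD comparisons came without a KD library and the highest without a WT or ATRXΔRBR library. In ATRXΔRBR against WT, 1979 genes were called with no filter on low counts, 597 with at least 10 counts in every library and 1738 in a fit of all 6 libraries. The cause of these shifts was not tested. The labels do not say that a replicate number marks a shared batch, and the deviations of same-numbered libraries from their genotype means correlated at -0.54 (ATRXΔRBR and WT), -0.08 (KD and WT) and 0.11 (KD and ATRXΔRBR), so the numbers were not taken to pair the libraries. With the replicate block, 1071, 5792 and 6775 genes and 1, 5 and 6 members were called. A crossed replicate block in ATRXΔRBR against WT, added after seeing the data, called 5585 genes and 4 members, and 4 of 15 proliferation genes, 7 of 12 Ink4 regulators and 4 of 14 genes of the BCL2 family, where the fit without a block called 0 of each list. At a q-value of 0.01 or less, ATRX peaks were left at 1, 1 and 0 member starts in WT replicates 1 and 2 and ATRXΔRBR replicate 2. Pseudocounts of 0.1 and 5 turned no TPM fold change of a member, and all 9 members had at least 5 TPM in every library. The peak lists carry no read depth of their own, which limits what an absent peak shows.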

Other observations

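Genes of proliferation and of senescence-associated secretion were also listed. Of 15 proliferation genes, 0 were called in ATRXΔRBR against WT by edgeR without a block or by DESeq2, and 1 had an unadjusted p under 0.05 (median log2 fold change -0.16). For KD against WT, 9 were called (60.0%, beside 33.0% of all genes), 7 higher and 2 lower, but 5 without KD replicate 1 and 4 without KD replicate 2. With all libraries, Mki67 was at 217 and 376 CPM in WT and 586 and 608 CPM in the libraries labelled ATRX KD (1.00, SE 0.23, adjusted p = 0.0169), Top2a, a topoisomerase of dividing cells, at 0.80 (SE 0.12, adjusted p = 0.00361) and Pcna, the sliding clamp of DNA replication, at -0.83 (SE 0.12, adjusted p = 0.00276). In ATRXΔRBR Mki67 was at 424 and 214 CPM.

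Of 13 senescence-associated genes tested in ATRXΔRBR against WT, 4 were called (30.8%, beside 6.85% of all genes), 2 higher and 2 lower. Igfbp4 and Igfbp7 were among the higher and Cxcl1 among the lower. The chemokine gene Cxcl1 was at 134 and 197 CPM in WT, 75.8 and 80.6 CPM in ATRXΔRBR and at most 27.04 CPM in the libraries labelled ATRX KD, and Igfbp7 at 15.9 and 11.1, 33.8 and 51.4, and 71.7 and 80.5 CPM. Of 12 tested in KD against WT, 9 were called (beside 33.0% of all genes), 2 higher and 7 lower, and fewer were called without either KD library. Of 14 tested genes of the BCL2 family and its partners, 0 were called in ATRXΔRBR against WT by edgeR without a block or by DESeq2. By edgeR, 1 had an unadjusted p under 0.05. In KD against WT 8 were called (57.1%, beside 33.0% of all genes), 2 higher and 6 lower. That count was smaller without either KD library and was 4 by DESeq2. With all libraries, Bad, a BH3-only gene, was at -0.83 (SE 0.14, adjusted p = 0.00500) and Bmf, another, at 1.15 (SE 0.30, adjusted p = 0.0250).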
